A study of Mus musculus with 25 samples.

Results

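The somatostatin (Sst) cells described here are 5 of 25 single neurons from the base of the mouse hypothalamus, and they were set against the other 20. They were chosen by the measured level of Sst itself, at 10 RPKM or more (RPKM is the density of reads per kilobase of exon, scaled by the depth of each library), so that level is a description of the groups and not a result. The 5 cells carry the numbers 1, 6, 9, 25 and 31 in the labels. The lowest of them, cell 31, held Sst at 709.5 RPKM, and every cell below the limit was listed at 0, so no cell lay near it.

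All 25 cells shared genotype, strain and agent: they came from 2 pooled male mice of strain (C57BL/6 x DBA)F2 that carried RIP-Cre and averaged 63 days of age. RIP is a rat insulin promoter that drives Cre, and an adeno-associated virus gave green fluorescent protein (GFP) to cells in which Cre had removed its stop cassette. The arcuate nucleus and median eminence were taken apart with papain, fluorescent cells were collected manually, and each cell became 1 Smart-Seq2 library of polyadenylated RNA. The cells are therefore only those that the promoter and the virus marked, and nothing here speaks for unmarked Sst neurons. The labels do not say which mouse a cell came from, so each side of the comparison is 1 sample, cells are not replicates, and no p-value or standard error is given. Where values differ between the groups, they differ between these 5 and these 20 cells.

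Somatostatin is a peptide hormone cut from a longer precursor, and it inhibits the secretion of many other hormones. Hypothalamic somatostatin released into the portal vessels of the median eminence inhibits the secretion of growth hormone by the pituitary, while other somatostatin neurons of the arcuate nucleus act within the brain and commonly also make GABA. Its receptors couple to inhibitory G proteins, lower cyclic AMP and open potassium channels. Bsx is a homeobox factor of the hypothalamus that is known from arcuate feeding neurons, and cyclic AMP raises transcription of Sst through a cyclic AMP response element in its promoter.

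The promoters of Sst and of its receptor gene Sstr2 are shown because both hold the 8 bases of that element, TGACGTCA, which reads the same on both strands. The windows are the 250 bases before the RefSeq start of each gene (GRCm38.p6), at chr16:23890845-23891094 on the minus strand for Sst and chr11:113619077-113619326 on the plus strand for Sstr2, written 5′ to 3′ along the gene with the element in capitals.
Sst: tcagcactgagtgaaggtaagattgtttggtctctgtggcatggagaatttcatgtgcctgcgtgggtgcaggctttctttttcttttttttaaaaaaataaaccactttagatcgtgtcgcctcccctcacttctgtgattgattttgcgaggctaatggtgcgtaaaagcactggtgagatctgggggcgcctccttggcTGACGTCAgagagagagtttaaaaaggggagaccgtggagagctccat
Sstr2: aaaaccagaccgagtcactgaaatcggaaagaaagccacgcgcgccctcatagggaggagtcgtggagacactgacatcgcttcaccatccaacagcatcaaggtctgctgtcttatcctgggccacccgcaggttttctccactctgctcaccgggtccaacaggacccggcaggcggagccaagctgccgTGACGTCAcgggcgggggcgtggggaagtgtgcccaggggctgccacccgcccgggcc
The element began 48 bases before the RefSeq start of Sst and 58 bases before that of Sstr2. In GENCODE, the source of the gene spans given below, Sst starts further upstream and the element lies inside its span. It was present in 506 of 32500 such windows (1.56%), and in 1 of the 21 genes with a window among the 24 named genes that were higher in Sst cells, the 1 being Sstr2. A match of letters is a description of the sequence, and binding was not measured.

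Sst (ENSMUSG00000004366.4, chr16:23889573-23890958, GRCm38) was measured at 916 RPKM in cell 1, 786 in cell 6, 1577 in cell 9, 713 in cell 25 and 709.5 in cell 31. Beside it, Bsx was detected in 4 of the 5 Sst cells and in no other cell, the receptor Sstr2 in 4 of 5 against 4 of 20, the homeobox factor Nkx2-1 and the prohormone convertase Pcsk2 in 5 of 5 against 7 of 20 each, and the homeobox factor Dlx2 in none against 13 of 20. A gene is called detected at 10 RPKM, which for a gene of 1 kb stood for an estimated 8.9 to 18.5 reads in the Sst cells and 11.1 to 29.9 in the others. Sizes are given as the difference of mean log2(RPKM + 1), Sst cells minus other cells, a scale that understates the difference of low genes. A gene passed the size rule as higher at a difference of 2 or more with detection in at least 4 of 5 Sst cells and at most 10 of 20 other cells, and as lower at -2 or less with detection in at most 1 of 5 and at least 10 of 20.

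By this rule 109 of 9782 genes were higher (1.11%) and 180 were lower (1.84%) in the Sst cells. Of the 109, 24 were detected in all 5 Sst cells and 85 in 4, and 12 were detected in at most 3 other cells. Of the 180, 86 were detected in no Sst cell and 94 in 1, and 29 were detected in at least 15 other cells. Bsx was the single higher gene listed at 0 in all 20 other cells, whereas 19 lower genes were listed at 0 in all 5 Sst cells. Only Gfra2 had every Sst cell above every other cell (0.0102% of genes), and no gene had every Sst cell below (0.0%). With the cells rescaled to the same summed RPKM, or to the same median of commonly detected genes, the groups overlapped for Gfra2 too and the count was 0. The median difference over all genes was -0.11. With so few cells these counts move with single cells: the number of higher genes was 45 without cell 1, 51 without cell 6, 56 without cell 9, 69 without cell 25 and 51 without cell 31, settings in which a higher gene had to be detected in all 4 remaining cells. The number of lower genes was 148, 109, 143, 147 and 134 in the same order, where a lower gene had to be detected in none of the 4 remaining cells. The detection limits were thus stricter in both directions than with 5 cells. With a pseudocount of 10 RPKM the counts were 9 higher and 4 lower.

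**Figure D1:**
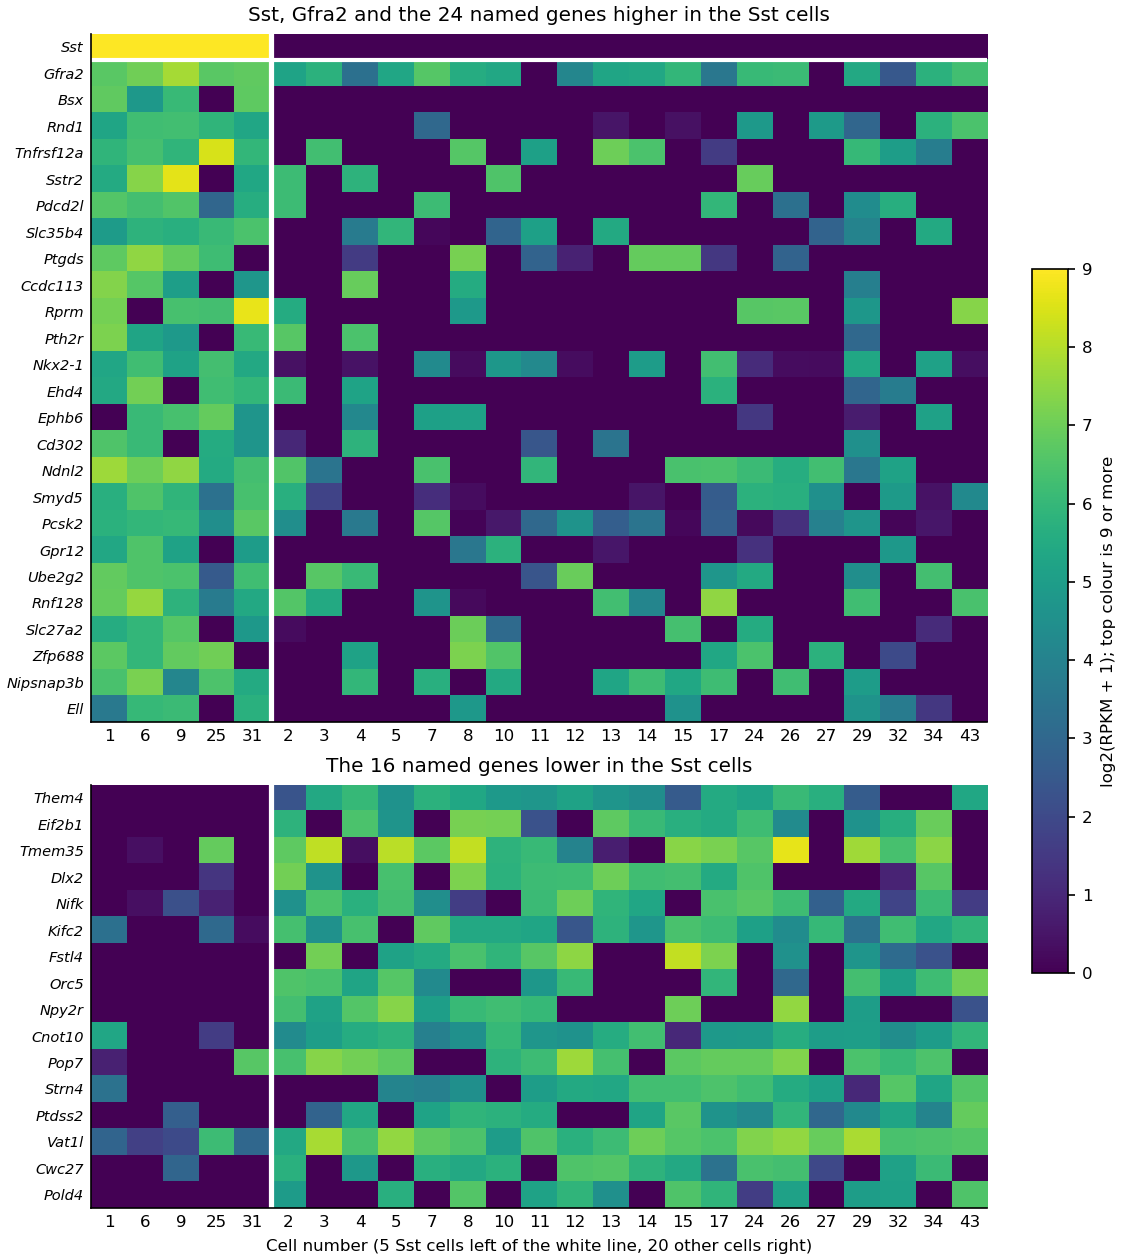
Level of each named gene (rows) in each of the 25 cells (columns) as log2(RPKM + 1), with the 5 Sst cells left of the white line. The upper panel holds Sst, Gfra2 and the 24 genes with the largest positive difference, most of them dark in cell 25 or in 1 other Sst cell and lit in 0 to 10 of the other cells, and the lower panel holds 16 genes with the largest negative difference.

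Among the somatostatin receptors, Sstr2 and Sstr1 were higher in the Sst cells and the rest were rarely detected. Sstr2 (ENSMUSG00000047904.6, chr11:113619342-113626028) was measured at 44.1 RPKM in cell 1, 165 in cell 6, 391 in cell 9, 0 in cell 25 and 40.2 in cell 31. It was highest in cell 9 and listed at 0 in cell 25. Cell 9 also had the most Sst, but cell 1 had more Sst than cell 6 and less Sstr2. Of the other cells, numbers 2, 4, 10 and 24 had it at 71.0, 54.9, 89.9 and 120.6 RPKM, and it was listed at 0 in the rest, so the groups overlapped, with a difference of 4.10. Sstr1 was measured at 0 RPKM in cell 1, 74.5 in cell 6, 163 in cell 9, 34.7 in cell 25 and 24.1 in cell 31, against 8 of 20 other cells and a difference of 2.16. Each Sst cell thus held Sstr1 or Sstr2, and cells 6, 9 and 31 held both. Sstr5 was found in 1 Sst cell, cell 9 at 54.2 RPKM, and in 2 other cells. Sstr3 and Sstr4 reached the level in no Sst cell and in 1 and 2 other cells, and Cort, the related peptide cortistatin, in no cell. Of the 3 genes of this family that entered the comparison, 2 passed as higher and none as lower. Over all genes 1.11% were higher and 1.84% lower, and 3 genes are few for a share.

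The machinery on which these receptors act was for the most part at like levels. Of 39 genes for inhibitory G proteins, potassium channels, adenylyl cyclases, kinases and phosphodiesterases, 1 was higher (2.56%) and 1 lower (2.56%). The shares over all genes were 1.11% and 1.84%, and the median difference of the 39 was 0.15. The higher one was Pde4b, a phosphodiesterase that breaks down cyclic AMP, measured at 40.1 RPKM in cell 1, 37.9 in cell 6, 5.43 in cell 9, 24.4 in cell 25 and 11.5 in cell 31. In the other cells it ranged from 0 to 44.0 RPKM with a median of 1.25, so the ranges overlapped widely. The lower one was Prkar2b, a regulatory subunit of protein kinase A, detected in 1 of 5 Sst cells at 10.4 RPKM and in 13 of 20 others, with a difference of -2.46. Other subunits of the kinase and the G protein subunit Gnb1 were in every cell of both groups, with differences of -0.06 for Prkar1a, 0.24 for Prkar1b and -0.01 for Gnb1.

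Bsx and Nkx2-1 were the transcription factors that were higher in the Sst cells, and Dlx2 was lower. Of 31 factors that entered the comparison 2 were higher (6.45%) and 1 lower (3.23%), beside 1.11% and 1.84% over all genes. Bsx, 1 of the 2, was a marker named beforehand and met the filter of 3 cells through the Sst cells alone. It could not have come out lower, so the share of higher factors is not read as a result. Bsx (ENSMUSG00000054360.4, chr9:40874127-40880057) was measured at 111 RPKM in cell 1, 26.9 in cell 6, 65.9 in cell 9, 0 in cell 25 and 108 in cell 31, and at 0 in all 20 other cells. With Bsx listed at 0 in cell 25 as well, that cell could not be told from the other group by Bsx. Nkx2-1 (ENSMUSG00000001496.15, chr12:56531958-56536908), which is needed for the development of the ventral hypothalamus, was measured at 39.4 RPKM in cell 1, 75.4 in cell 6, 35.1 in cell 9, 77.8 in cell 25 and 42.2 in cell 31. In the others it ranged from 0 to 75.9 RPKM with a median of 0.29. Cells 1, 6, 9 and 31 lay inside the range of the 7 other cells that had it, and only cell 25 lay slightly above. The difference was 3.78.

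Dlx2 (ENSMUSG00000023391.8, chr2:71543408-71546754) was the lower factor. Dlx genes are known for specifying GABA neurons of the forebrain and hypothalamus. Dlx2 was at 1.59 RPKM in cell 25 and at 0 in the other 4 Sst cells, against 0 to 149 RPKM with a median of 62.1 in the others, of which 7 were below the level, so the groups overlapped at the bottom. Six6, a factor of the ventral hypothalamus and eye, was detected in all Sst cells and 18 of 20 others, Six3 in 4 of 5 and 18 of 20, and Isl1, which specifies arcuate peptide neurons, in 4 of 5 and 14 of 20, with differences of 1.38, -0.62 and 0.70. The zinc finger gene Peg3 was in every cell of both groups.

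Cell 25 had factors that the other Sst cells lacked, named here after their values were seen. It held Dlx5 at 69.0 RPKM, Gsx1 at 65.2, Tbx19 at 60.3, Nfix at 55.5, Nkx2-4 at 51.2, Dlx6 at 47.2, St18 at 42.9, Nfib at 31.9 and Dlx1 at 12.4 RPKM, each of which was below 10 RPKM in cells 1, 6, 9 and 31. It lacked Isl1, at 0 against 26.2 to 131 RPKM in the other 4. Otp, a factor of hypothalamic peptide neurons, reached 24.5 RPKM in cell 1 and 45.8 in cell 6, was detected in 2 of 20 others, and was at 8.60 RPKM in cell 9. Among the other cells Dlx5 was detected in 9 of 20, Dlx6 and Dlx1 in 7 each, Nfix in 7 of 20 and Tbx19 in 6 of 20, so several factors of cell 25 were also found in cells without Sst.

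**Figure D2:**
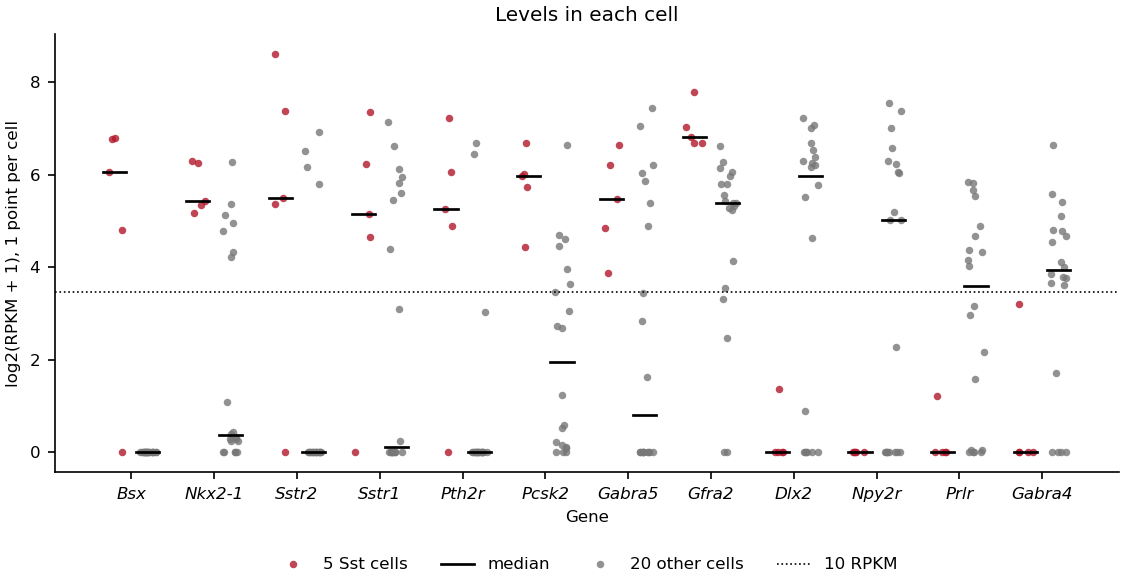
Level of 12 genes as log2(RPKM + 1), with 1 point per cell, red for the 5 Sst cells and grey for the 20 others, a bar at each median and a dotted line at 10 RPKM. The Sst cells at 0 for Bsx, Sstr2 and Pth2r are cell 25, the 4 genes on the right have every Sst cell below 10 RPKM, and only Gfra2 has every red point above every grey one on the deposited scale, which is lost when the cells are rescaled.

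Of 13 neuropeptide genes other than Sst that entered the comparison none passed the size rule, beside 1.11% higher and 1.84% lower over all genes. The Sst cells differed among themselves in the peptides they held. The Sst cells held 5 to 6 of the 38 listed peptide genes other than Sst at the level (median 6), and the others 1 to 8 (median 4.5). Cbln4, a secreted organizer of synapses, came closest to a shared gene, at 239.9 RPKM in cell 1, 259 in cell 6, 250.3 in cell 9, 15.0 in cell 25 and 87.3 in cell 31. It was detected in all 5 Sst cells and in 11 of 20 others, where it ranged from 0 to 230.4 RPKM with a median of 38.4, and the groups overlapped. Its difference of 3.20 missed the rule because it was in more than 10 other cells.

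After Sst, the peptides differed by cell. Cell 1 held Pthlh, a relative of parathyroid hormone, at 227 RPKM and Nucb2, the nesfatin precursor, at 133 RPKM. Nucb2 was also in cell 6 at 103 RPKM and in other cells at up to 202.6 RPKM. Cells 6 and 9 shared galanin and Cartpt, the source of CART peptide: Gal was at 449.8 and 144 RPKM and Cartpt at 125 and 323 RPKM. In the other 3 Sst cells Gal was listed at 0 and Cartpt was at 0.90 RPKM or less. Gal was also in 3 of 20 other cells and Cartpt in 8 of 20. Below its 3 highest peptides cell 9 held Nmb at 136 RPKM and Pnoc at 119 RPKM. Pnoc was also in cell 1 at 35.8 RPKM and in other cells at up to 136 RPKM.

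Cells 25 and 31 had Penk, the enkephalin precursor, at 365 and 83.3 RPKM, and cells 1, 6 and 9 had none. Penk was also in several other cells, at up to 408 RPKM in cell 12. Cell 25 also held Trh, thyrotropin-releasing hormone, at 59.4 RPKM and Nmu, neuromedin U, at 58.1 RPKM, which were at 0 in the other Sst cells. Nmu was listed at 0 in all 20 other cells, and Trh was in 1 of them. Nucb2 came after Cbln4 and Penk in cell 31 at 45.8 RPKM.

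**Figure D3:**
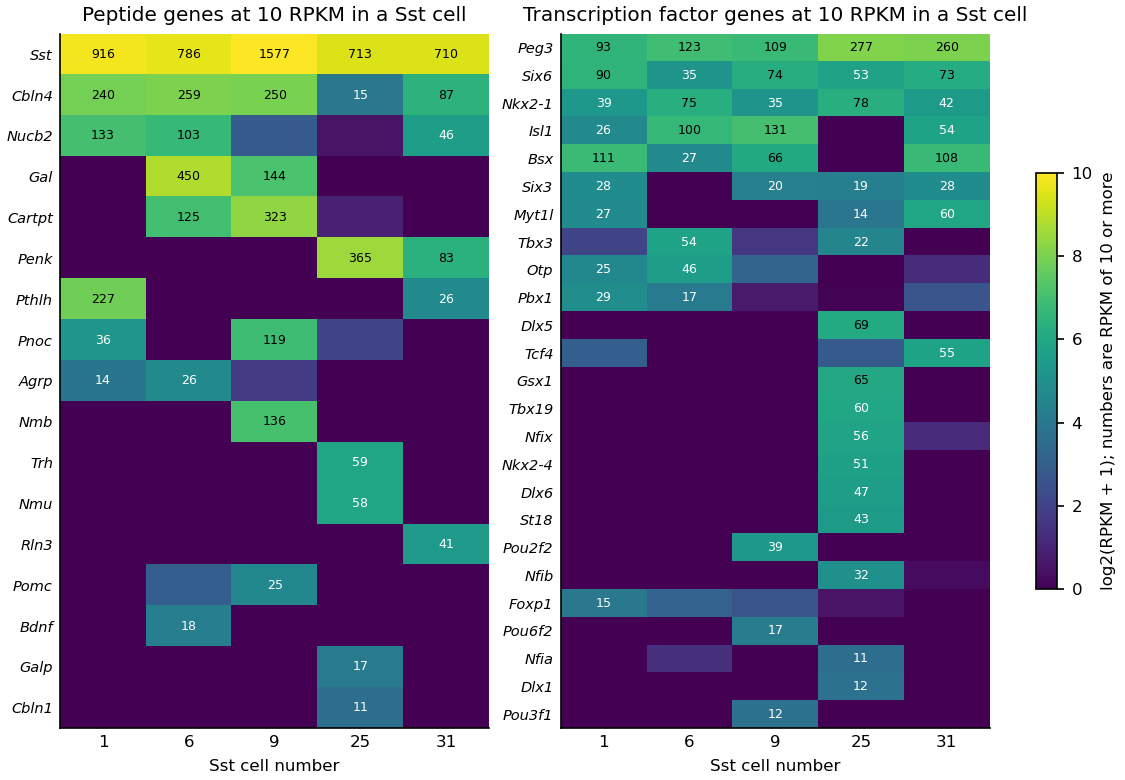
Peptide genes (left) and transcription factor genes (right) that reached 10 RPKM in at least 1 Sst cell, as log2(RPKM + 1) in colour with the RPKM printed at 10 or more. The columns for cells 6 and 9 share Gal and Cartpt, and the column for cell 25 has Penk, Trh and Nmu and a block of factors that is dark in the other 4 cells.

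Pcsk2 was the member of the processing list that stood out. It encodes proprotein convertase 2, which cuts peptide precursors in dense-core vesicles (ENSMUSG00000027419.9, chr2:143546156-143816285). It was measured at 52.2 RPKM in cell 1, 61.6 in cell 6, 63.7 in cell 9, 20.7 in cell 25 and 102 in cell 31, against 0 to 98.7 RPKM with a median of 3.39 in the others, a difference of 3.62. Cells 1, 6, 9 and 25 lay inside the range of the other group, and only cell 31 lay above it. Pcsk2 shares exon sequence with antisense transcripts on the opposite strand, and these libraries do not mark strand. Of the 22 processing genes 1 was higher (4.55%) and none lower, beside 1.11% and 1.84% over all genes, with a median difference of 0.30. The vesicle genes Resp18, Scg2, Scg5 and Cpe were in all 25 cells, with differences of 0.42, 0.41, 0.31 and 0.29. The second convertase, Pcsk1, reached 18.4 RPKM in cell 1 and 45.8 in cell 31 and was detected in 4 of 20 others.

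For transmitters, the Sst cells carried the GABA enzyme Gad1 like most of the others, and no GABA, glutamate or monoamine gene passed the rule. Gad1 was measured at 51.0 RPKM in cell 1, 66.7 in cell 6, 77.0 in cell 9, 90.7 in cell 25 and 137 in cell 31, and was detected in 18 of 20 others with a median of 87.7 RPKM. The vesicular glutamate transporter Slc17a6 was at 0.12 RPKM in cell 6 and at 0 in the other 4 Sst cells. Gad2, the second GABA enzyme, was named after its values were seen: it was at 154 RPKM in cell 25 and 139 in cell 31 but below 10 in cells 1, 6 and 9, against 17 of 20 other cells.

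Of the monoamine genes Th, Ddc and Slc18a2 are given by cell, Ddc and Slc18a2 again named after their values were seen, and none passed the rule. Slc18a2, the vesicular monoamine transporter, was listed at 0 in all 5 Sst cells and detected in 9 of 20 others at up to 223 RPKM. Ddc, the decarboxylase that makes dopamine, was in cells 1 and 31 at 42.0 and 86.3 RPKM and at 0 in cells 6, 9 and 25, against 16 of 20 others with a median of 98.2 RPKM. Th, tyrosine hydroxylase, was at 318 RPKM in cell 1, 0.45 in cell 25, 0.47 in cell 31 and 0 in cells 6 and 9, and was detected in 7 of 20 others. The difference of Ddc was -3.20, and it was not of 1 sign: 1.26 among the cells with Malat1 below 20 RPKM and -6.08 among the rest.

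Among receptors for hormones and peptides, 1 of 37 was higher (2.70%) and 2 were lower (5.41%), beside 1.11% and 1.84% over all genes. Pth2r (ENSMUSG00000025946.13, chr1:65282056-65389244), a receptor for the peptide of the Pth2 gene, was measured at 149 RPKM in cell 1, 37.4 in cell 6, 28.6 in cell 9, 0 in cell 25 and 66.1 in cell 31. Cells 2 and 4 were the only other cells that had it, at 101 and 86.4 RPKM, and both also had Sstr2. Pth2r thus met the filter of 3 cells only with the Sst cells counted. Npy2r (ENSMUSG00000028004.12, chr3:82538383-82548084), a receptor for neuropeptide Y and peptide YY, was listed at 0 in all 5 Sst cells and detected in 11 of 20 others, which ranged from 0 to 187 RPKM with a median of 31.5. Prlr, the prolactin receptor, was at 1.34 RPKM in cell 31 and at 0 in the other 4, against 10 of 20 others and a difference of -2.72. In both cases the groups overlapped, since the other cells without the receptor were at or near the level of the Sst cells.

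Receptors that were like in both groups included Nr3c1, the glucocorticoid receptor, in 5 of 5 Sst cells and 18 of 20 others, and Oprl1, the nociceptin receptor, in 4 of 5 and 17 of 20. Receptors of uncertain ligand passed as higher outside this list. Gpr12, which raises cyclic AMP, was measured at 41.5 RPKM in cell 1, 91.3 in cell 6, 35.8 in cell 9, 0 in cell 25 and 30.2 in cell 31, and was detected in 3 of 20 others. Gpr101, named after its values were seen, was in all 5 Sst cells at 53.6 to 116 RPKM and in 10 of 20 others with a median of 11.5 RPKM.

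Among receptors for fast and slow transmitters, Gabra5 passed as higher and Gabra4, Gabra2 and Grik1 as lower. Of 44 transmitter receptor genes 1 was higher (2.27%) and 3 were lower (6.82%), beside 1.11% and 1.84% over all genes. All 3 lower genes encode subunits of ionotropic receptors. Gabra5 was measured at 99.2 RPKM in cell 1, 72.7 in cell 6, 13.7 in cell 9, 43.5 in cell 25 and 27.8 in cell 31, against 7 of 20 others and a difference of 2.87. Gabra4 was below 10 RPKM in every Sst cell, with 8.16 RPKM in cell 25 and 0 in the rest, and was in 15 of 20 others. Its exons overlap those of Gabrb1 on the opposite strand, so reads of the 2 genes may be mixed. Gabrb1 itself was in all 25 cells with a difference of -0.17. Gabra2 was in 1 of 5 Sst cells, cell 1 at 18.6 RPKM, and 12 of 20 others, and the kainate receptor gene Grik1 in cell 25 at 20.9 RPKM and 11 of 20 others.

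The lists of ion channels, calcium-binding proteins and adhesion genes held 5 lower genes and no higher one, beside 1.84% lower and 1.11% higher over all genes. Of 55 ion channel genes 2 were lower (3.64%), while 29 of the 55 differences were above 0: Cacna1b, the pore of the N-type calcium channel, in 1 of 5 against 15 of 20 cells, and Cacng5, an auxiliary subunit, in 0 of 5 against 10 of 20. The sodium channel subunit Scn2b and the calcium channel subunit Cacnb3 were in all 5 Sst cells, with differences of 0.93 and 1.81. Of 18 calcium-binding genes 11 had differences above 0 and 1 was lower (5.56%), Necab1, listed at 0 in all Sst cells and detected in 11 of 20 others. Of 46 adhesion and guidance genes 2 were lower (4.35%), the cadherin Cdh18 in 0 of 5 against 10 of 20 cells and the netrin receptor Unc5d in 1 of 5 against 15 of 20.

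Outside the lists, Gfra2 (ENSMUSG00000022103.10, chr14:70890120-70979838), the receptor that binds neurturin, was the one gene whose groups did not overlap on the RPKM as deposited, and they overlapped under both rescalings of the cells. It was measured at 102 RPKM in cell 1, 129.9 in cell 6, 219 in cell 9, 102 in cell 25 and 111 in cell 31, against 0 to 98.0 RPKM with a median of 41.1 in the others. The gap was small, since the highest other cell reached 97.95 RPKM and the lowest Sst cell 101.9. Gfra2 was in 16 of 20 others, so it had a higher level in the Sst cells and was not confined to them, and its difference was 2.31.

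The other large positive differences came from genes of mixed function. Rnd1, a small GTPase that loosens the actin cytoskeleton, was measured at 38.1 RPKM in cell 1, 75.0 in cell 6, 76.2 in cell 9, 57.8 in cell 25 and 39.1 in cell 31, and was in 4 of 20 others with a highest value of 86.0. Tnfrsf12a, the receptor for the cytokine TWEAK, was in all 5, between 58.5 and 349 RPKM, and in 8 of 20 others. Rprm, which is known for arresting the cell cycle, was at 137 RPKM in cell 1, 0 in cell 6, 82.0 in cell 9, 77.5 in cell 25 and 420.0 in cell 31, against 6 of 20 others. Ptgds, which makes prostaglandin D, was in 4 of 5 Sst cells at 73.7 to 181 RPKM and in 3 others. Ephb6, an ephrin receptor without kinase activity, was in 4 of 5 and 4 of 20.

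The rest of the 24 named higher genes were Pdcd2l, Slc35b4, Ccdc113, Ehd4, Cd302, Ndnl2, Smyd5, Ube2g2, Rnf128, Slc27a2, Zfp688, Nipsnap3b and Ell, with differences from 3.35 (Ell) to 4.02 (Pdcd2l). They include enzymes of ubiquitin transfer (Ube2g2, Rnf128), a fatty acid transporter (Slc27a2) and an elongation factor of transcription (Ell), and each was in 3 to 10 of the other cells. A gene known only by a provisional clone name, 2810468N07Rik, had the largest difference of all after Sst, at 5.24, in 5 of 5 against 4 of 20 cells.

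The largest negative differences, beside those of Dlx2 and Npy2r given above, were in genes of mixed function. Them4, a thioesterase, was listed at 0 in all 5 Sst cells and detected in 15 of 20 others, which ranged from 0 to 67.0 RPKM with a median of 31.6, a difference of -4.32. Eif2b1, a subunit of a translation initiation factor, was also at 0 in all 5 and in 14 of 20 others. Vat1l was the lower gene found in the most cells: it was in 20 of 20 others at 30.8 to 233 RPKM with a median of 93.6, and at 6.41 RPKM in cell 1, 2.24 in cell 6, 3.09 in cell 9, 71.8 in cell 25 and 7.12 in cell 31. Cells 1, 6, 9 and 31 lay below every other cell for Vat1l and cell 25 lay inside their range. Of the remaining named lower genes, Tmem35, Nifk, Kifc2, Fstl4, Orc5, Cnot10, Pop7, Strn4, Ptdss2, Cwc27 and Pold4 lay between -3.87 (Tmem35) and -3.43 (Pold4), in 0 or 1 Sst cell against 11 to 19 others. The exons of Kifc2 and Cwc27 overlap those of a gene on the opposite strand.

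Cell 25 was the Sst cell that most often lacked a gene the other 4 had. Of the 85 higher genes found in 4 of 5 Sst cells, 32 were missing in cell 25, against 13 in cell 1, 12 in cell 6, 11 in cell 9 and 17 in cell 31. Over all 9782 genes, 302 were missing from cell 25 alone, against 127, 266, 237 and 187 in the same order. Lower genes present in 1 Sst cell alone were most frequent in cells 9 and 1, with 28 and 26, against 16 in cell 25, 15 in cell 31 and 9 in cell 6. Cell 25 held 77 of the 109 higher genes and the other Sst cells 92 to 98. Among the other cells this number ran from 23 to 64 with a median of 36.5, and the highest were cell 29 with 64 and cell 4 with 49. The 109 genes were selected for being in Sst cells, so these numbers show only how far the cells were apart on them.

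Whole profiles did not set the Sst cells apart. The correlation of log2(RPKM + 1) over the 9782 genes, Sst left out, had a median of 0.484 over the 10 pairs of Sst cells, with a range of 0.434 to 0.539. It was 0.477 over the 100 pairs of a Sst cell with another cell and 0.476 over the 190 pairs of other cells, and these ranges contained nearly all of the first. The cells share preparation and differ in depth, so these values are a description. Cells 6, 9 and 31 were most alike to cell 1, at 0.529, 0.524 and 0.539. So were cells without Sst such as cells 2 and 8, at 0.543 and 0.537. Cell 1 was high with both groups, with a median of 0.526 with the Sst cells and 0.515 with the others. Cell 1 was most alike to cell 12 (0.545), which has no Sst, and cell 25 to cell 32 (0.502).

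**Figure D4:**
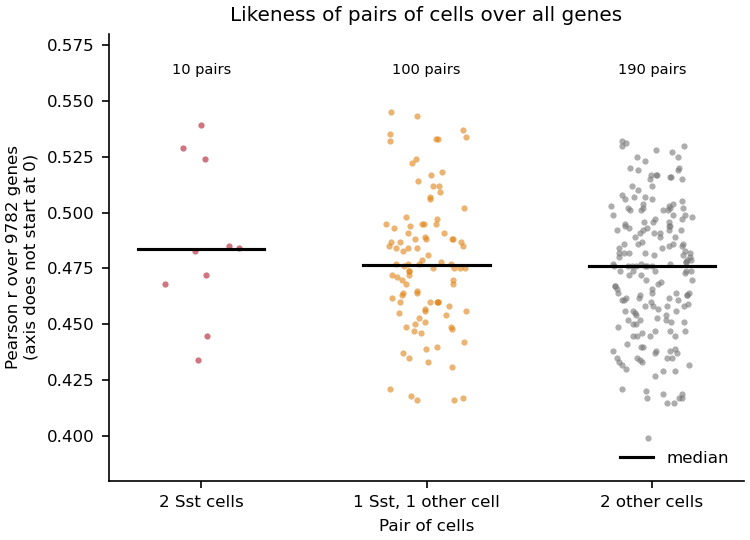
Pearson correlation of log2(RPKM + 1) for every pair of cells, 1 point per pair, with a bar at each median. The medians are 0.484 for 2 Sst cells, 0.477 for a Sst cell with another cell and 0.476 for 2 other cells, and the 3 clouds overlap.

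Malat1, a nuclear noncoding RNA that can mark how much of the nucleus was captured, differed in frequency between the groups. It was below 20 RPKM in 3 of 5 Sst cells (13.3 in cell 1, 12.2 in cell 6 and 0 in cell 31) and in 3 of 20 others (cells 3, 5 and 29). Cells 9 and 25 had 97.4 and 174 RPKM, below and above the median of 114 in the others, which reached up to 196.5 RPKM. Meg3 and Snhg11, other noncoding RNAs of neurons named partly after their values were seen, followed it: Meg3 was at 0 RPKM in cell 1, 2.61 in cell 6, 118 in cell 9, 185 in cell 25 and 0.11 in cell 31, and Snhg11 at 0.41 RPKM in cell 1, 17.5 in cell 6, 288 in cell 9, 253 in cell 25 and 10.9 in cell 31. Of 7 genes of that list none passed the rule, with a median difference of -1.18. Meg3 differed by -2.94 over all cells, by -1.84 among the cells low in Malat1 and by 0.33 among the rest.

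Most of the differences had the same sign on both sides of that line. Among cells low in Malat1 (3 against 3), 101 of the 109 higher genes were above 0 and 170 of the 180 lower genes below 0, and among the rest (2 against 17) 107 and 178 were. For Bsx the differences were 6.12 and 3.03, for Sstr2 6.08 and 2.81, for Nkx2-1 3.89 and 3.79, for Pcsk2 4.56 and 2.98, and for Dlx2 -3.67 and -3.52. The genes were chosen on the same cells, which favours a like sign. Without the cells low in Malat1 the size rule passed 344 higher and 368 lower genes, of which 53 and 103 were among those counted above, but it then rested on cells 9 and 25 alone. The part of Malat1 in the results was not tested.

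**Figure D5:**
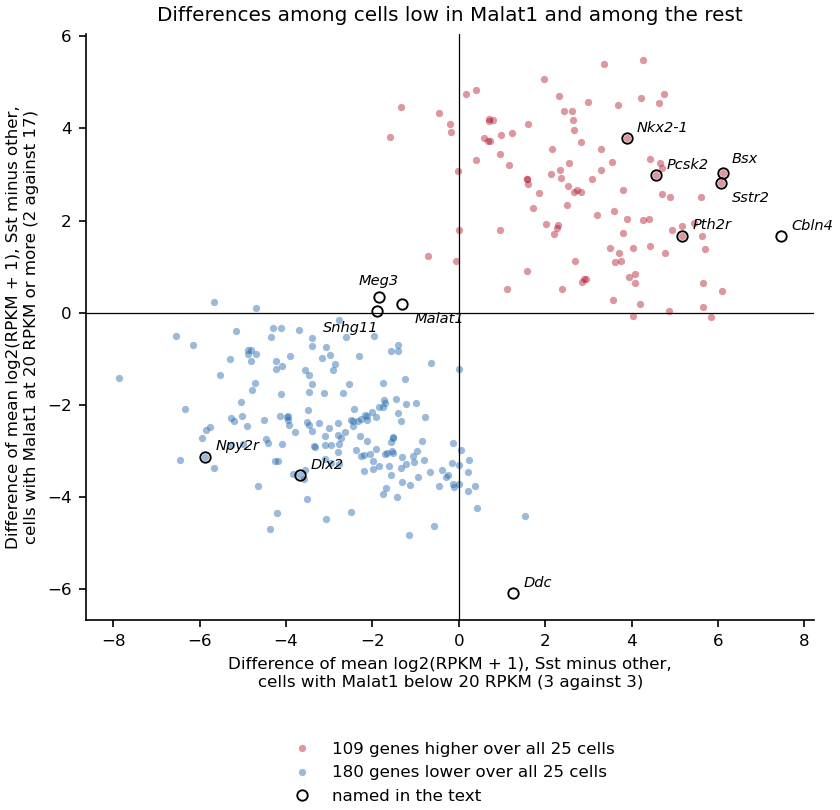
Difference of mean log2(RPKM + 1), Sst minus other cells, among the cells with Malat1 below 20 RPKM (3 against 3, horizontal) and among those at 20 RPKM or more (2 against 17, vertical), with 109 higher genes in red and 180 lower genes in blue. Bsx, Sstr2, Nkx2-1, Pcsk2, Dlx2 and Npy2r keep their sign on both axes, whereas Meg3 is at -1.84 and 0.33 and Ddc at 1.26 and -6.08.

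The Sst cells had a lower estimated depth, 890500 to 1852000 reads (median 1274000), than the others, 1114000 to 2992000 (median 1880000), and the groups overlapped. Genes detected numbered 4337 to 4814 in the Sst cells (median 4755) and 3843 to 6183 in the others (median 5015). Immediate early genes, which neurons switch on when active or dissociated, summed to 1531 to 3283 RPKM (median 1935) against 86.55 to 2811 (median 1429). None of 20 passed the rule, with 16 differences above 0 and a median of 0.91. Fos was in all 5 Sst cells at 466 to 781 RPKM and in 19 of 20 others with a median of 410.3. Heat shock genes summed to 1951 to 2449 against 1507 to 2837 RPKM, with no gene of 11 past the rule. The part of depth and of immediate early genes in the results was not tested.

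The 5 cells had the markers of neurons and few of other cell types. They held 10 to 11 of 12 neuronal markers at the level, against 8 to 12 in the others, and none of the 12 passed the rule. All 6 markers of oligodendrocyte precursors, 7 of 8 of astrocytes, 6 of 8 of microglia, 7 of 9 of endothelial and mural cells and 5 of 8 each of oligodendrocytes and of tanycytes and ependyma were at 0 in all 5. Summed endothelial and mural markers reached 0 to 115.3 RPKM against 0 to 57.53, which in cells 1, 6 and 9 was Itm2a alone, while the defining endothelial gene Cldn5 was at 0 in every cell. Tanycyte and ependymal markers summed to 0 to 73.35 against 0 to 97.60 RPKM. Cell 25 held the microglial genes Tmem119 at 25.5 RPKM and Csf1r at 1.0 RPKM, with the other 6 listed microglial markers at 0. The part of these genes in the results was not tested.

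Gene sets known from other somatostatin neurons had too few genes in the comparison for their counts to be read as a result. Of 21 listed genes of cortical somatostatin interneurons 8 entered the comparison. None of the 8 was higher and 1 was lower, Grik1, beside 1.11% higher and 1.84% lower over all genes. Calb2, which encodes calretinin, was in all 5 Sst cells at 11.0 to 206 RPKM and in 15 of 20 others, and Calb1, which encodes calbindin, in 3 of 5 and 10 of 20. Rbp4 was in cells 6 and 31 at 114 and 40.1 RPKM, and the highest other cell was at 7.23. Of the genes by which arcuate somatostatin groups have been named, none of the 4 that entered passed the rule: Pthlh was in cells 1 and 31, Agrp in cells 1 and 6 at 13.7 and 25.8 RPKM, Th in cell 1 and Unc13c in cell 6 at 13.7 RPKM. None of them was in cells 9 or 25 at the level, and no single one was in all 5.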

How the data were processed

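A single gene-by-cell table was deposited by the authors. It is named for gene counts, but its decimals have the form of RPKM. Tools named in the labels are, per the submitters' processing notes, featureCounts 1.4.6, TopHat2 2.0.14, SAMtools 0.1.19, Picard 2.5.0 and bcl2fastq, with GRCm38 and mm10 as builds. The sources used here give neither their roles nor the annotation, and do not say whether counting used strand. Smart-Seq2 has no molecular identifiers, so reads are not independent molecules. From 33082 rows, 26 with names turned into date numbers were dropped and repeated symbols were reduced to their highest row, leaving 30903 symbols. RPKM was used as deposited, with a pseudocount of 1 RPKM. The 9782 genes considered had 10 RPKM or more in at least 3 of 25 cells, Sst left out.

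Exon lengths, identifiers and positions came from GENCODE M21 (GRCm38), with a length for 22714 symbols (73.5%). Depth was estimated from the steps of 1 to 3 reads among low values; estimator and comparison were tested on simulated data. The lengths may differ from the authors', so reads are estimates. Promoters came from RefSeq (GRCm38.p6). Work was done in Python 3.11.15 with pandas 2.3.3 and numpy 2.4.6.

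Named were the 24 higher and 16 lower genes of largest difference, leaving out provisional names; genes without overlap; Sst, Bsx and Sstr2; from each list the members past the rule and up to 4 others; and the 3 highest peptides of each Sst cell. Members, lists and rules were chosen with earlier results of these data known. Some genes so named are not described. Alternatives were other pseudocounts, detection levels, filters, scalings, treatment of repeated symbols, limits on Sst, group medians, subsets of the other cells, and leaving out each Sst cell or the cells low in Malat1. No test was made, since each side is 1 sample.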

Additional observations from a re-analysis of the deposited data

Results flagged for a closer look

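Among the 24 named higher genes and 5 measures of cell quality, 11 of 29 had 1 of the 5 Sst cells far from the other 4, with a gap to the nearest above 0.71 of the whole range on the scale used. Chance flags about 1 in 20 groups, and a rule that accepts detection in 4 of 5 cells admits genes of this shape. Cell 25 was the cell apart in 6 of them. It was high for Tnfrsf12a, at 349.1 RPKM against 58.5 to 80.5 in the others. It was low for Pdcd2l (6.77 RPKM), Smyd5 (9.19 RPKM) and Ube2g2 (4.87 RPKM), and it was listed at 0 for Gpr12 and Slc27a2. Cell 9 was listed at 0 for Ehd4 and for Cd302, cell 31 at 0 for Ptgds and for Zfp688, and cell 6 at 0 for Rprm. No measure of quality was flagged: depth, genes detected, Malat1, immediate early genes and heat shock genes each had no Sst cell so far from the rest.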

How the results depend on the processing

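With a pseudocount of 0.1 RPKM the size rule passed 175 higher and 331 lower genes, and with 10 RPKM it passed 9 and 4. With group medians in place of means 354 genes were lower. Leaving out each Sst cell made the detection limits stricter, at all or none of the 4 cells left. These settings gave 45 to 69 higher and 109 to 148 lower genes. In them 2 to 5 genes had every Sst cell above every other cell, and 0 to 2 had every Sst cell below. Without cells low in Malat1 there were 344 higher and 368 lower genes, and 64 and 15 without overlap, in a setting with 2 Sst cells. Without the 7 other cells that had Th, 5 and 2 genes did not overlap. Rescaling the cells moved the median difference by -0.06 or -0.08 and gave 97 higher and 190 lower, or 94 and 195; under both, 0 genes had every Sst cell above every other cell, against 1 (Gfra2) as deposited. Median correlations over the 1000 most variable genes were 0.3333 within Sst cells, 0.3032 between the groups and 0.2987 within the others; without the cells low in Malat1 the first was 0.4342, from 1 pair. Of 778 differences of 41 named genes recomputed under 19 alternatives, 0 reversed and 99 moved by more than the spread over Sst cells. Of the 99, 48 were of 6 genes at 0 in every Sst cell, for which any change counts as a move, and 51 were of the others. Other detection levels, the filter and other limits on Sst left the difference of a gene unchanged, so they could reverse none. The genes were also picked on these same cells, which favours a kept sign. No paired analysis was possible because the cells carry no animal and the result comes from no test. At these depths a gene listed at 0 in a single cell may be present at a low level.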
